A study of Mus musculus with 31 samples.

Results

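Liver gene expression of male C57BL6/J mice lacking ChREBPβ was compared with that of WT littermates after refeeding. The comparison took every array whose genotype label is ChREBPbeta_KO (8 mice) or ChREBPbeta_WT (8 mice), 16 of the 31 arrays of the series, with 1 mouse per array. In the ChREBPβ-deficient mice, exon 1b of Mlxipl was removed by CRISPR/Cas9 with 2 guide RNAs, and the deletion was present in all tissues. All mice, of both genotypes, ate a regular chow diet, fasted for 24 hours and were then refed for 18 hours with food and 20% glucose in the drinking water. Mice came from several litters and 2 transgenic lines were derived per strain, but the labels give neither the line nor the litter of a mouse, nor its age. The other 15 arrays belong to a line without both ChREBP isoforms (7 ChREBPtotal_KO mice and 8 ChREBPtotal_WT littermates, same strain and refeeding). They entered the same model and served as the reference for the genes that respond to ChREBP.

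ChREBP, encoded by Mlxipl, is a transcription factor that senses glucose. With its partner Mlx it binds carbohydrate response elements, which are built from E-box motifs, and switches on genes of glycolysis, fructose breakdown and fatty acid synthesis in the fed liver. ChREBPα is the full-length form and is held in check by its N-terminal domain. ChREBPβ starts at another promoter and another first exon, lacks that domain and is active without it, and its promoter is itself a ChREBP target.

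The sequences of both Mlxipl promoters show where the isoforms part. RefSeq (GRCm38.p6, chromosome 5, plus strand) lists 2 starts that lie 17001 bases apart, and exon 1b lies at the upstream one. The 250 bases before each start are printed 5′ to 3′, with the E-box CACGTG in capitals. CACGTG is its own reverse complement, so 1 search covers both strands.
Mlxipl, before the upstream start, chr5:135089640-135089889: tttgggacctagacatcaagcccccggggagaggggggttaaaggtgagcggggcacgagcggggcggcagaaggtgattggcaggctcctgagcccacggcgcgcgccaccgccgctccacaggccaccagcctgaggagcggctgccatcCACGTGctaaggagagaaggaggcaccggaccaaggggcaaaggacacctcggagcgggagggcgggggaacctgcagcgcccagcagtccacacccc
Mlxipl, before the downstream start, chr5:135106641-135106890: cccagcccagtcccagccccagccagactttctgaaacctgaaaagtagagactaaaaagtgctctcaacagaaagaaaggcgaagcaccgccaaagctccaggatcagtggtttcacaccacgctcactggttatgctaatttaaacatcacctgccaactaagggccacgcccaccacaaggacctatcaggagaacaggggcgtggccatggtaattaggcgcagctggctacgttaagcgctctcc
The upstream window held 1 CACGTG, with its first base 98 bases before the start, and the downstream window held none. The same motif was found in 1978 of 32851 RefSeq windows of this length (6.02%), so a match alone does not single out a promoter. The ends of the deletion were not determined here.

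Mlxipl was read by 3 probes, all outside the first exon. They do not cover the deleted exon, so neither the deletion nor the genotype label of each mouse was verified with them. Of each probe a stretch of 30 bases is printed because the probes differ in how much sequence they share with probes of other genes. Transcripts were not searched, so which other RNAs can bind a probe was not tested. Capitals mark bases in runs of 16 or more that also occur in probes of other genes.
A_55_P2119957: tgtagatgtgtgtgtgcgtatgtggatttt
A_55_P2728555: tACTACACAGAGAAACCCTGTCTCAAAAAA
A_55_P2045158: tgaTGCACACCTTTAATCCCAGTACTTGgg
The first probe shared no such run with any other probe. The second shared one with 21 probes of other genes and the third with 6.

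Mlxipl was the gene that fell in ChREBPβ-deficient liver. Probe A_55_P2119957 (mm9, chr5:135613705-135613764) gave log2 signals from 14.38 to 14.80 with a median of 14.61 in the 8 ChREBPβ-deficient mice. In the 8 WT littermates the signals ran from 14.86 to 15.32 with a median of 15.08. Every ChREBPβ-deficient mouse was below every WT mouse. The log2 difference was -0.48 (SE 0.0744, 95% interval -0.63 to -0.33), which left 71.5% of the WT signal (64.4 to 79.5%). The adjusted p of the limma fit over 36057 probes was 0.0116. The two-sided exact permutation test over the 16 mice gave 0.000155, the smallest value it can give, and 0.000466 after adjustment over the 3 Mlxipl probes. The second probe, A_55_P2728555 (chr5:135598483-135599113), ran from 10.30 to 10.88 (median 10.52) in ChREBPβ-deficient mice and from 10.49 to 11.70 (median 10.96) in WT mice, so the groups overlapped. Its difference was -0.46 (95% interval -0.75 to -0.16) with an exact permutation p of 0.0141 (0.0212 adjusted over the 3 probes) and an adjusted limma p of 0.978. The third probe, A_55_P2045158 (chr5:135614195-135614252), differed by -0.06 (95% interval -0.18 to 0.06).

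The Mlxipl call was narrow, while its direction was not. The adjusted limma p was 0.0888 when the 16 arrays were fitted alone and 0.195 with the slide as a fixed block. With the replicate number as a block on the 16 arrays it was 0.314. The labels do not say whether equal replicate numbers mark a pair. The adjusted p was 0.0505, 0.0509 and 0.0511 without ChREBPβ-deficient replicate 5, ChREBPβ-deficient replicate 6 or WT replicate 7. Arrays were scanned on 2 days. On the first day (3 against 4 mice) the difference was -0.34 and did not pass the test, and on the second (5 against 4 mice) it was -0.59 (adjusted p = 0.0234). In mice without both isoforms the same probe read 45.5% of their WT littermates (log2 difference -1.14), and the effects of the 2 lines differed by 0.65 on the log2 scale (SE 0.107, adjusted p = 6.2e-05). The difference between the lines did not pass the test on the other probes. A_55_P2728555 fell by 0.59 without both isoforms, and its effects differed by 0.13 (adjusted p = 0.736). A_55_P2045158 had a difference of -0.04 without both isoforms, 97.0% of WT (adjusted p = 0.63), and its effects differed by -0.01 (adjusted p = 0.937).

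**Figure D1:**
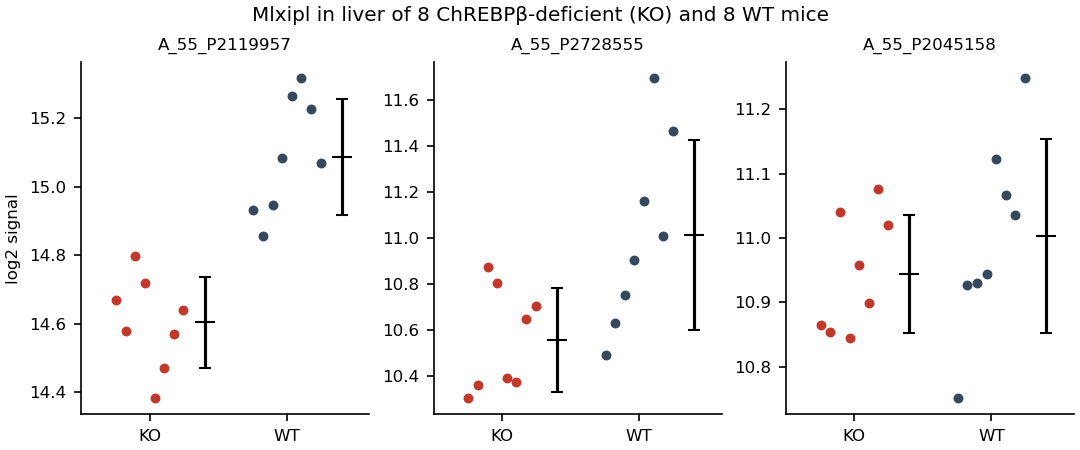
Log2 signal of the 3 Mlxipl probes in each of 8 ChREBPβ-deficient (KO) and 8 WT mice, with the mean and SD at the right of each group and a separate vertical scale per probe. On A_55_P2119957 all KO mice lie at or below 14.80 and all WT mice at or above 14.86, while the groups overlap on the other 2 probes.

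In the main 31-array model, fitted to the deposited values, no other gene passed the test. Of 36057 probes 1 was called (0.00277%), so of 23968 gene names 0 were higher and 1, Mlxipl, was lower, and the next smallest adjusted p was 0.182 (Slc26a4). Without adjustment, 774 genes were higher and 857 lower at p under 0.05 by limma, and these calls came from 1753 probes (4.86%). The exact Mann-Whitney test gave 894 higher and 1212 lower of the 23968 gene names without adjustment. As in the limma count, a gene was counted if any of its probes passed, and the share of probes was not counted. None passed the Mann-Whitney test after adjustment, with a smallest adjusted p of 0.467. Over 1 probe a gene, the median log2 difference was -0.01 and 47.2% of genes had a positive difference.

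Among the genes with the next smallest p, Slc26a4 and Slc22a29 had larger differences than Mlxipl, with larger errors. Slc26a4, an anion exchanger, ran from 6.75 to 7.21 (median 6.95) in ChREBPβ-deficient mice and from 5.95 to 6.84 (median 6.54) in WT mice, a difference of 0.50 (SE 0.0967). The groups overlapped, and the gene rose by 2.03 in mice without both isoforms. It passed the test in ChREBPβ-deficient mice with array weights (adjusted p = 0.0466) and without WT replicate 5 (0.55, adjusted p = 0.0394). Slc22a29, a member of the organic anion transporter family, ran from 6.06 to 7.01 (median 6.49) against 5.17 to 6.19 (median 5.86), a difference of 0.73 (SE 0.16). Chmp4b, a subunit of the ESCRT-III membrane-remodelling complex, ran from 11.89 to 12.45 (median 12.22) against 12.43 to 12.76 (median 12.52), a difference of -0.33 (SE 0.0759). Both pairs of groups overlapped, Chmp4b by a margin of under 0.1. The adjusted p was 0.431 for Slc22a29 and 0.619 for Chmp4b.

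On 10 probes (0.0277%) the 2 groups did not overlap. ChREBPβ-deficient mice were all higher on 2 of them. Fam126a, which helps to anchor a lipid kinase at the plasma membrane, ran from 10.55 to 10.85 against 10.02 to 10.44, a difference of 0.39 that was 0.39 on the first scan day and 0.37 on the second. Acadm, the medium-chain acyl-CoA dehydrogenase of fatty acid oxidation, ran from 15.31 to 15.39 against 14.97 to 15.29, a difference of 0.19 (adjusted p = 0.719). They were all lower on the other 8, which were Mlxipl, Gpkow, a non-coding RNA probe of chromosome 4 and 5 transcripts without a gene symbol. The chromosome 4 probe, A_30_P01029792, ran from 4.33 to 4.86 against 4.88 to 5.37, near the dim end of the array, with a difference of -0.57 (adjusted p = 0.273). In the main model, fitted to the deposited values, none of these 10 except Mlxipl passed the test.

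The comparison had room to see modest changes. Half-widths of the 95% interval had a median of 0.161 on the log2 scale, a factor of 1.12, and were at most 0.368 for 95% of probes. At that median precision, the top probe needed a difference of 0.47, or 1.39-fold, to be called. The whole interval lay inside 1.5-fold for 34761 probes (96.4%) and inside 2-fold for 35807 (99.3%). By genes, all probes stayed inside 1.5-fold for 22857 of 23968 genes (95.4%) and inside 2-fold for 23748 (99.1%). An equivalence test, which asks whether a difference is smaller than the limit and was adjusted over all probes, passed for 97.5% of probes at 1.5-fold and 99.5% at 2-fold.

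On the deposited values, for which the methods name no background subtraction, the limits hardly depended on brightness. They put 97.5% of probes with a mean log2 signal under 6 inside 1.5-fold, 95.1% of those from 8 to 10 and 97.5% of those at 12 and over. On these values, the probes that could still hide a 2-fold change were few and variable. Of all intervals 250 reached beyond 2-fold, and 205 of these probes had a pooled SD between mice of at least 0.5. At the other end, 0 probes had an interval wholly beyond 1.5-fold. When the 16 arrays were fitted alone, the share inside 1.5-fold was 96.9% and the share inside 2-fold 99.4%. With the scanner's processed signal, the share inside 1.5-fold was 87.6%, and 829 probes reached beyond 2-fold. That share was not split by brightness, so the limits given for dim probes hold for the deposited values only. How far background in the signal narrowed them was not tested. Among mice of the first and the second scan day the share on the deposited values was 90.0% and 91.1%.

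**Figure D2:**
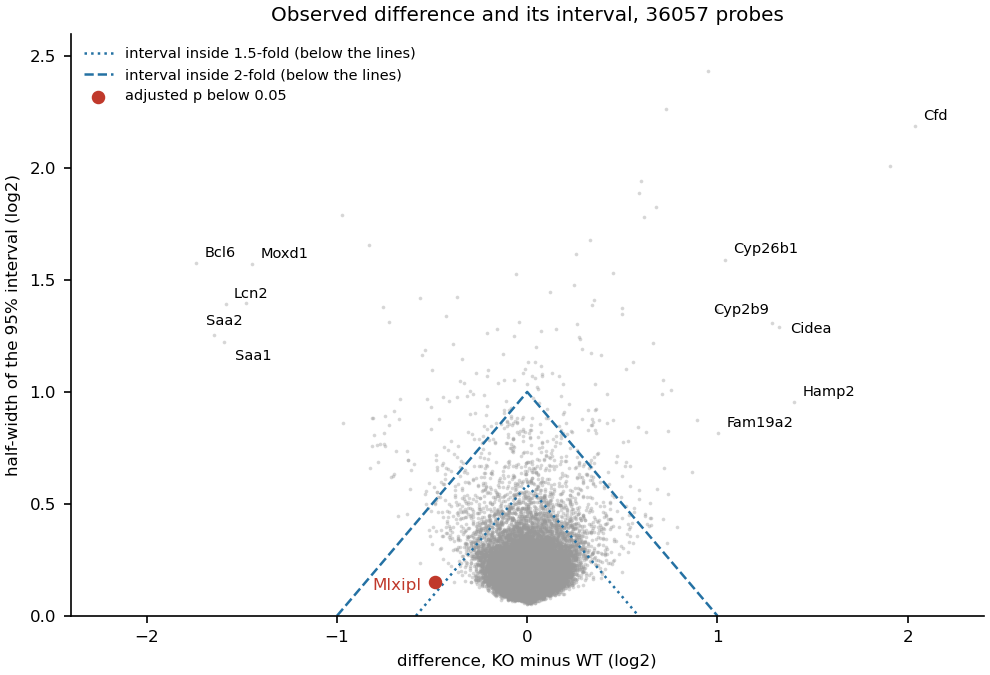
Observed log2 difference between ChREBPβ-deficient (KO) and WT mice against the half-width of its 95% interval, 1 point for each of 36057 probes. Points under the dotted and dashed lines have an interval inside 1.5-fold and 2-fold. Mlxipl, the called probe, has a small difference and a narrow interval, and the genes at least 2-fold apart all have wide ones.

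None of the known targets of ChREBP passed the test in ChREBPβ-deficient liver. All 24 genes of the target list were measured, 0 were called, 21 had a positive difference and 3 a negative one, with a median of 0.14 (from -0.27 to 0.50). The limits were wider than for most genes. Intervals of 11 targets (45.8%) lay inside 1.5-fold, against 95.9% over all genes, and those of 20 inside 2-fold. The median pooled SD was 0.456 for the targets and 0.150 over all genes. At an unadjusted p under 0.05, 1 was higher (Gckr, 0.13) and 0 were lower, where 2.22% of all genes were higher and 2.69% lower. Without both isoforms, 22 of the 24 fell and 0 rose, with a median of -2.85, where 14.6% of all genes fell and 14.8% rose. The effects of the 2 lines differed for 21 of the 24 genes, and for 3797 of all 23968. The list had a median difference of -0.15 on the first scan day and 0.28 on the second. The mean of the list had an SD between mice of 0.31.

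Pklr, liver pyruvate kinase and a classical ChREBP target, ran from 9.14 to 10.98 (median 10.49) in ChREBPβ-deficient mice and from 9.30 to 10.76 (median 10.23) in WT mice. The ranges nearly coincided, with a difference of 0.27 (95% interval -0.28 to 0.81; -0.21 and 0.59 on the 2 scan days) against a fall of 3.99 without both isoforms. Txnip, an arrestin that limits glucose uptake, ran from 11.77 to 13.43 (median 12.65) and from 11.80 to 13.26 (median 12.64), a difference of 0.04 (-0.40 to 0.48). Khk, the kinase that starts fructose breakdown, differed by 0.05 (-0.30 to 0.39), and G6pc, the catalytic unit that releases free glucose, by 0.03 (-0.94 to 1.01). Without both isoforms, Txnip fell by 1.24, Khk by 1.91 and G6pc by 4.77. Rgs16, a regulator of G protein signalling, had the lowest value of the list at -0.27 (-1.35 to 0.81) and fell by 6.39 without both isoforms. Fgf21, a liver hormone, had the highest at 0.50 (-0.88 to 1.87), and its difference of -0.15 without both isoforms did not pass the test.

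Enzymes of de novo lipogenesis, which turn acetyl-CoA into fatty acids, did not pass the test either, and their differences were mostly positive. Of 15 genes measured, 14 had a positive difference and 0 were called, and none reached an unadjusted p under 0.05, with a median of 0.16. Fasn, fatty acid synthase, ran from 16.93 to 18.21 (median 17.67) in ChREBPβ-deficient mice and from 17.001 to 18.23 (median 17.34) in WT mice. Its difference of 0.21 (95% interval -0.16 to 0.58) was -0.18 (SE 0.26) among mice scanned on the first day and 0.44 (SE 0.23) on the second. Scd1, the stearoyl-CoA desaturase, ran from 15.98 to 16.93 (median 16.27) against 15.35 to 16.70 (median 15.90), a difference of 0.37. Elovl6, which elongates palmitate, ran from 13.12 to 15.29 (median 14.22) against 13.43 to 15.16 (median 14.03), a difference of 0.11. All of these ranges overlapped over most of their length. The sign of Scd1 (-0.0895 and 0.77) and of Elovl6 (-0.47 and 0.50) also differed between mice of the first and the second scan day. Acaca, the acetyl-CoA carboxylase of the cytosol, differed by less than 0.01 (-0.39 to 0.40).

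The widths of these intervals depended in part on the model. The 31-array model takes the spread from all 4 groups, and Scd1 had an interval of -0.35 to 1.09 in it but -0.05 to 0.78 among the 16 arrays alone. For Elovl6 the intervals were -0.54 to 0.76 and -0.46 to 0.68. With all 31 arrays 14 of the 15 lipogenic genes had an interval inside 2-fold, and with the 16 arrays 15 did. Inside 1.5-fold there were 7 of the 15 in either fit. The list median was -0.0895 on the first scan day and 0.44 on the second. The days held different mice, and an effect of the day on this sign was not tested. The mean of the list had an SD between mice of 0.23. Without both isoforms, 12 of the 15 fell (14.6% of all genes) and the median was -2.07. Scd1 fell by 3.23, Fasn by 3.12 and Elovl6 by 3.69.

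**Figure D3:**
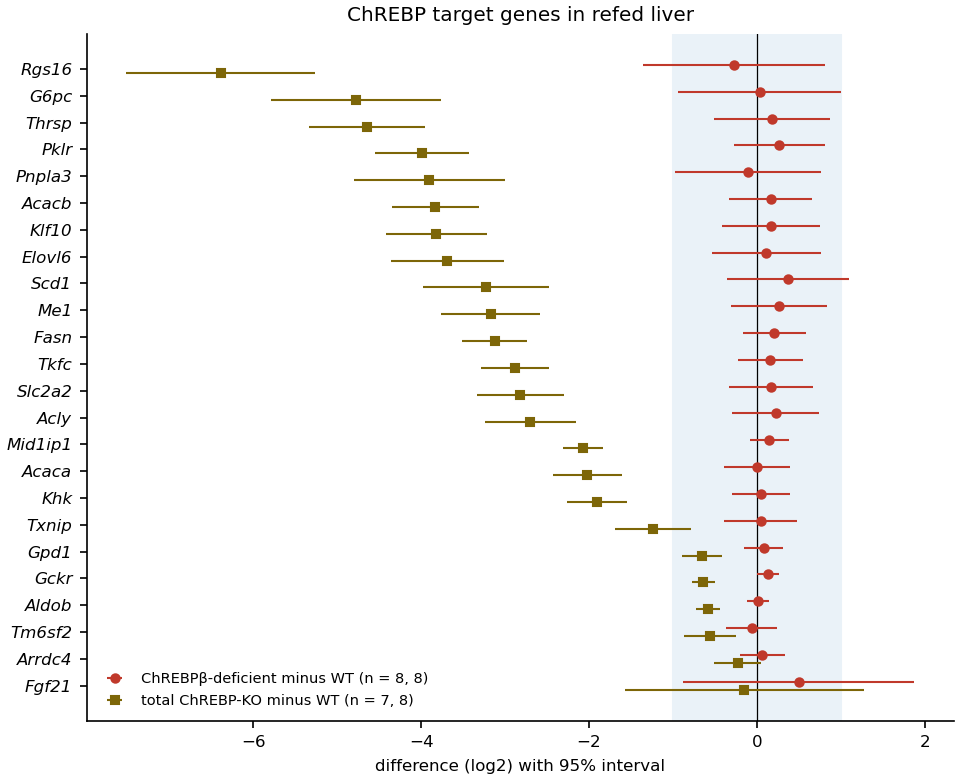
Log2 difference from WT littermates with its 95% interval for the 24 ChREBP target genes, in ChREBPβ-deficient mice (circles) and in total ChREBP-KO mice (squares), with the band of changes under 2-fold shaded. The circles lie between -0.27 and 0.50, while 22 of the squares passed the test, down to -6.39 for Rgs16.

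The factors that share partners with ChREBP had small differences, apart from Mnt. Of 12 genes of the MLX and MAX network, 0 were called and the median difference was 0.01. Mlx, the obligate partner, ran from 10.24 to 10.54 (median 10.39) against 10.15 to 10.48 (median 10.35), a difference of 0.05 (95% interval -0.09 to 0.20). Mlxip, the paralog also called MondoA, differed by 0.03 and Max by less than 0.01. Mnt, a repressor that dimerizes with Max or Mlx, ran from 11.57 to 12.21 (median 11.84) against 11.18 to 11.92 (median 11.52), a difference of 0.40 (SE 0.0948, unadjusted p = 0.000232). Its groups overlapped and it did not pass the adjustment over all probes.

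Genes of triglyceride synthesis and lipid droplets had the most positive median of the pathway lists. Of 18 measured genes, 17 had a positive difference, with a median of 0.25 beside -0.01 over all genes. At an unadjusted p under 0.05, 7 were higher and 0 lower (2.22% and 2.69% of all genes), and 0 passed the adjusted test. The 7 are named for that p and were thus chosen after their values were seen. The 18 genes were measured in the same 16 mice, so their signs and p-values are not independent. The mean of the list had an SD between mice of 0.24. Cidec, a lipid droplet protein, ran from 10.25 to 12.37 (median 11.48) against 9.39 to 11.52 (median 10.15), a difference of 0.89 (95% interval 0.02 to 1.77). Plin2, which coats lipid droplets, ran from 14.95 to 15.49 (median 15.30) against 14.70 to 15.27 (median 15.02), a difference of 0.27 (0.06 to 0.49). The groups overlapped for both genes. Cd36, a fatty acid transporter, differed by 0.53, Mogat1, an acyltransferase, by 0.62, Lpin2, a phosphatidate phosphatase, by 0.31, Plin5, a droplet coat of oxidative tissue, by 0.31, and Cidea by 1.33. With the 16 arrays alone, 6 of the 7 had an unadjusted p under 0.05, all but Cidea. In that fit 5.86% of all probes had such a p in either direction. The list median was 0.16 on the first scan day and 0.34 on the second. Without both isoforms 4 of the 18 rose and 6 fell (14.8% and 14.6% of all genes).

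Fatty acid oxidation and ketogenesis also had differences of mostly one sign, and they were small. Of 21 genes, 19 had a positive difference, 4 were higher at an unadjusted p under 0.05 (2.22% of all genes were) and 0 were called, with a median of 0.09. Among them were Acadm, Acaa1b (0.54), a peroxisomal thiolase, and Eci1 (0.13), an isomerase for unsaturated fatty acids. Cpt1a, the gate of mitochondrial uptake, ran from 12.88 to 14.16 (median 13.70) against 12.84 to 14.19 (median 13.63), so that its groups nearly coincided. Intervals lay inside 1.5-fold for 17 genes and inside 2-fold for 20. The mean of the list had an SD between mice of 0.10. Without both isoforms, 16 of the 21 rose and 1 fell (14.8% and 14.6% of all genes).

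For genes of sugar metabolism most intervals were narrow. Among 14 genes of glucose entry and glycolysis, 7 had a positive and 7 a negative difference, with a median below 0.01 and 12 intervals inside 1.5-fold, and 8 of the 14 fell without both isoforms (14.6% of all genes). Of 7 genes of fructose breakdown, 6 lay inside 1.5-fold and all inside 2-fold. The 8 genes of the pentose phosphate pathway all lay inside 1.5-fold, and of 12 glycogen genes 10 did. Of 6 genes of glucose output 4 did. Pck1, the entry enzyme of gluconeogenesis, ran from 13.62 to 15.96 (median 14.70) against 14.04 to 16.15 (median 15.43), a difference of -0.50 (95% interval -1.34 to 0.33) with overlapping groups. Its sign differed between mice of the 2 scan days, 0.11 (SE 0.52) on the first and -0.98 (SE 0.46) on the second.

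Cholesterol and bile acid genes included 1 with a larger difference. All 22 genes of cholesterol synthesis and uptake had an interval inside 1.5-fold, with a median difference of 0.07. The 2 with an unadjusted p under 0.05, both higher (2.22% of all genes were), were Insig1 (0.24), which retains SREBP in the endoplasmic reticulum, and Sc5d (0.20), a late enzyme of the pathway. Cyp7a1, the rate-limiting enzyme of bile acid synthesis, ran from 6.21 to 8.08 (median 7.42) against 6.14 to 10.24 (median 8.09), a difference of -0.97 (95% interval -1.83 to -0.10, unadjusted p = 0.0292). The lowest mice of both groups were alike and the WT group reached higher. The difference of Cyp7a1 was -1.65 among mice of the first scan day and -0.24 among those of the second, and with the 16 arrays alone its unadjusted p was 0.0605. The bile acid conjugating enzyme Slc27a5 differed by 0.12, and the other genes of the list of 10 had an unadjusted p over 0.05.

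Genes listed by the study for brown fat without ChREBPβ were also looked up in liver. That choice came from another tissue of the same study, so the lists are not independent of it. Of 67 measured genes lower in brown fat, 1 was called lower in liver, Mlxipl, and 36 of the 67 had a positive difference, with a median of 0.01. At an unadjusted limma p under 0.05, 1 of the 67 was higher and 3 were lower (2.22% and 2.69% of all genes). Of 47 measured genes higher in brown fat, 0 were called, 27 had a positive difference and the median was 0.01. At an unadjusted limma p under 0.05, 5 of the 47 were higher and 1 was lower. With the 16 arrays alone, 6 were higher and 2 lower, where 5.86% of all probes had such a p in either direction.

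Spread between mice of one genotype was low for most genes and large for a few. The pooled SD had a median of 0.151 on the log2 scale, and it reached 0.5 on 708 probes (1.96%) and 1 on 88 probes of 74 genes. In contrast, the 12 genes used as references had a median SD of 0.0857 and all lay inside 1.5-fold. The ChREBPβ-deficient mice were not the more variable group: their SD was the larger one on 37.7% of probes, with a median of 0.140 against 0.155.

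The largest pooled SD, 2.74, belonged to Dbp, a clock output factor that oscillates strongly in liver. Dbp ran from 8.52 to 14.49 (median 13.58) in ChREBPβ-deficient mice and from 8.21 to 15.28 (median 11.88) in WT mice, a 134-fold range. Signals were at or below 10.05 in ChREBPβ-deficient replicates 7 and 8 and in WT replicates 5 to 8, and at or above 11.82 in the other 10 mice. Arntl, the clock activator whose rhythm opposes that of Dbp, ran the other way: the lowest values, 6.39 to 6.88, were those of WT replicates 1, 3 and 4. Of 17 clock genes 0 were called, the median SD was 0.558, and 8 had an interval inside 1.5-fold. The difference of Dbp, 0.60, had an interval from -1.34 to 2.54. The time of day at which each mouse was killed was not given in the sources used here.

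A principal component analysis of the residuals, the values after removal of the group means, described this spread. The first 3 components held 23.5%, 16.9% and 11.5% of the residual variance, 51.9% together. Genes of the clock led the first, among them Dbp, Per3, Usp2 and Tef with one sign and Arntl, Nfil3 and Cdkn1a with the other. The second set apart 1 mouse of each group, ChREBPβ-deficient replicate 2 (score 40.3) and WT replicate 2 (37.5), and the next score was 4.36. Tff3, a secreted trefoil peptide, Cyp2b10, a drug-inducible cytochrome P450, and the metallothionein Mt2 led it. Mt2 read 14.21 and 14.47 in these mice and had group medians of 11.31 and 11.60. It was also high in WT replicates 6 (13.95) and 8 (13.81). Cyp2b10 read 9.54 in ChREBPβ-deficient replicate 2 and 9.72 in ChREBPβ-deficient replicate 5, so neither gene alone singled out the 2 mice. The third component was led by acute-phase genes, with the highest scores in WT replicates 6 (26.7) and 8 (23.1).

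**Figure D4:**
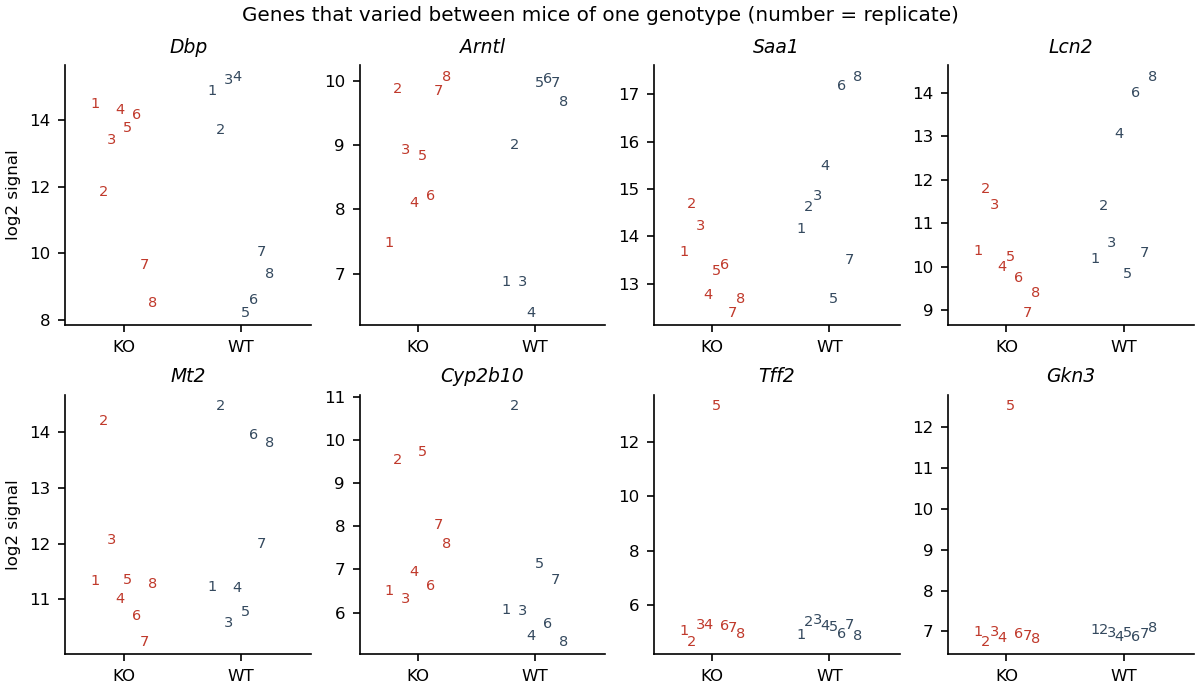
Log2 signal of 8 genes in each of 16 mice, drawn as the replicate number in the ChREBPβ-deficient (KO) and WT columns, with a separate vertical scale per gene. Dbp and Arntl run in opposite directions, WT replicates 6 and 8 are highest for Saa1 and Lcn2, and KO replicate 5 alone is high for Tff2 (13.29) and Gkn3 (12.51).

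Differences of at least 2-fold were seen on 13 probes of 11 genes, 6 higher and 5 lower, and none passed the test. The groups overlapped on all 13, the pooled SD was at least 1 on 12, and on 8 the unadjusted p was under 0.05. Without some single mouse 4 of the probes were under 2-fold, and by the difference of medians 5 were.

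The higher genes included 2 that are rich in fat tissue. Cfd, adipsin, ran from 8.42 to 12.60 (median 10.78) against 6.44 to 10.42 (median 8.72), a difference of 2.04 (95% interval -0.15 to 4.22) and of 1.74 without ChREBPβ-deficient replicate 6. Cidea, a lipid droplet protein, ran from 6.32 to 12.09 (median 9.04) against 5.74 to 9.76 (median 8.06), a difference of 1.33 and of 0.87 without the same mouse. The ChREBPβ-deficient group reached higher in both genes, and 5 of its 8 mice were above every WT mouse for Cfd. Among mice scanned on the first and the second day, the difference of Cfd was 0.86 and 2.78 and that of Cidea 0.65 and 1.51. Of the other adipocyte markers, Plin1 differed by -0.08, Lep by -0.14 and Retn by 0.11, and Adipoq was too dim to be tested. The summed signal of the 6 adipocyte markers ran from 11.17 to 12.999 against 10.76 to 11.82 on the log2 scale, highest in ChREBPβ-deficient replicate 6. That sum includes Cfd, which alone read 12.60 in this mouse, so it is not separate from the Cfd result. The median difference of the 6 markers was 0.01.

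Hamp2, a hepcidin gene, ran from 9.87 to 11.74 (median 10.66) against 7.61 to 11.95 (median 9.21), a difference of 1.40 (unadjusted p = 0.0053). The highest mouse of all was a WT mouse. Cyp2b9, a cytochrome P450, ran from 6.36 to 10.04 (median 7.61) against 5.24 to 9.69 (median 5.78), a difference of 1.28 and of 0.96 without ChREBPβ-deficient replicate 5. Cyp26b1, which degrades retinoic acid, differed by 1.04 and by 0.63 without WT replicate 5, and Fam19a2 by 1.002 and by 0.80 without ChREBPβ-deficient replicate 2. On the first and the second scan day, the difference was 0.77 and 2.07 for Hamp2, 0.45 and 2.002 for Cyp2b9, and 1.71 and 0.35 for Cyp26b1. None of these except Hamp2 and Fam19a2 had an unadjusted p under 0.05.

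The lower genes were led by acute-phase proteins, which liver secretes in inflammation. All 12 genes of that list had a negative difference, with a median of -0.60 and a median SD of 0.911. At an unadjusted p under 0.05, 3 were lower (Saa1, Saa2 and Lcn2, where 2.69% of all genes were lower), and 0 were called. The 12 genes were measured in the same mice and are not independent, and the mean of the list had an SD between mice of 0.73. Saa1, serum amyloid A, ran from 12.38 to 14.68 (median 13.33) against 12.68 to 17.36 (median 14.73), a difference of -1.59 (95% interval -2.82 to -0.37). Saa2 differed by -1.65 and Lcn2, lipocalin 2, by -1.48. WT replicates 6 and 8 were the 2 highest mice for Saa1 (17.2 and 17.4) and for Lcn2 (13.99 and 14.37), followed by WT replicate 4, and the lowest WT mice lay within the range of the ChREBPβ-deficient mice. Without WT replicate 8 the differences were -1.253 for Saa1, -1.31 for Saa2 and -1.10 for Lcn2. The list median was -0.18 without WT replicates 6 and 8, and among mice scanned on the first day it was 0.00493, and on the second day, to which both of those mice belong, it was -1.22. Neutrophil markers, whose summed log2 signal was highest in WT replicate 8 (11.35), ran from 9.54 to 10.62 against 8.88 to 11.35, and all 7 Kupffer cell markers had a negative difference (median -0.17). The part of these cells in the acute-phase values was not tested. In whole liver, fewer cells of a type and less RNA per cell cannot be told apart. Without both isoforms, 7 of the 12 acute-phase genes fell and 1 rose (14.6% and 14.8% of all genes), with a median of -1.08. The effects of the 2 lines differed for 2 of the 12.

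Moxd1, a monooxygenase relative, was dim, above background on 5 of 8 ChREBPβ-deficient and 6 of 8 WT arrays, and ran from 4.40 to 5.76 (median 4.75) against 4.62 to 8.53 (median 5.96). Bcl6, a repressor of transcription in liver, differed by -1.74 on A_55_P2719024, which is not its brightest probe, and by -0.55 (95% interval -1.71 to 0.61) on the brightest, A_52_P161495. The dimmer probe ran from 5.42 to 9.95 (median 6.51) against 5.45 to 10.04 (median 9.53), and both groups held mice at either end.

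**Figure D5:**
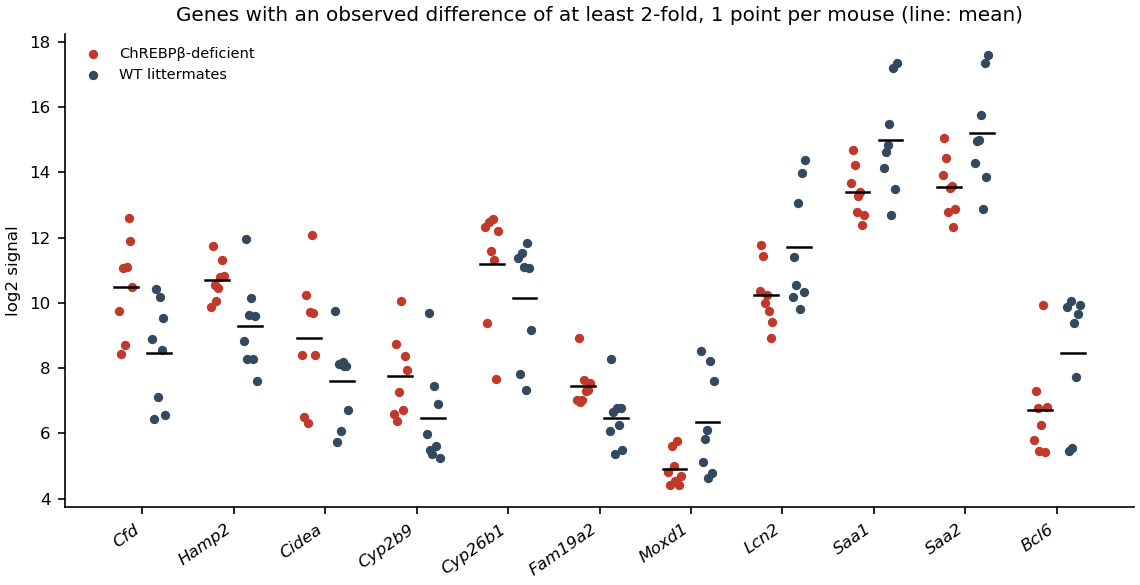
Log2 signal of the 11 genes with an observed difference of at least 2-fold, 1 point per mouse, ChREBPβ-deficient mice at the left and WT littermates at the right of each gene, with a line at the mean. The groups overlap for every gene, and the acute-phase genes Saa1, Saa2 and Lcn2 have WT replicates 6 and 8 at the top.

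The arrays of both groups had similar numbers of usable spots and similar hepatocyte markers. Spots kept by the filter numbered 35879 to 38612 per array in ChREBPβ-deficient and 36351 to 38180 in WT mice, and correlations between any 2 of the 16 arrays ran from 0.991 to 0.997. Hepatocyte markers summed to 20.39 to 20.45 against 20.30 to 20.49 on the log2 scale, and all 8 of them were measured. Of the male-specific genes, all 4 were measured and 0 were called. Exocrine pancreas markers summed to 13.62 to 14.77 against 13.62 to 14.64, lowest in replicate 2 of both groups. Markers of endothelial, stellate, bile duct, red blood and lymphoid cells had medians between -0.10 and 0.08, and 0 of them were called.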

How the data were processed

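Liver RNA of 31 mice was profiled on Agilent 1-colour microarrays. The authors deposited scanner files (Feature Extraction 10.10.1.1) with spot intensity and a log2 table. Per their methods, they took median signals, kept spots above background, quantile normalized the arrays and merged replicated probes by the median. That the table is log2 was checked against the scanner values (r from 0.9985). Quantile normalization gives all arrays 1 distribution, so only changes relative to other genes can be seen.

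Tests used limma 3.58.1 (R 4.3.3) on the deposited log2 values, with 4 groups in 1 model and Benjamini-Hochberg adjustment over 36057 probes (threshold 0.05). A gene was called if any probe was, and is described by its brightest probe. Of 23968 gene names, 17360 matched RefSeq. Spots with outlier flags (0.112%) were kept. Genes named were Mlxipl, called genes, those with the 5 smallest p each way, the first 4 and extreme members of each list, the 12 widest spreads, and at most 6 genes each way at least 2-fold apart. The 5 largest changes each way without both isoforms, also in that rule, are not printed, and some genes are not reported here. Other genes were chosen after their values were seen. Members, lists and tests were chosen with earlier results of these data known. Programs were tested on simulated data. The number of mice, 8 per group, limits the precision. Alternatives changed the signal, filter, blocks, scan day, weights and mice. Figures were drawn with matplotlib 3.10.9.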

Additional observations from a re-analysis of the deposited data

Results flagged for a closer look

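Over the genes given with values and the array measures, 156 groups of 8 mice were examined for a mouse that stands apart, by a gap to its nearest neighbour, divided by the group's range, above Dixon's 95% critical value. For values not chosen for their spread, such a gap arises by chance in about 1 of 20 groups. Here 13 were found (8.33%). Some of these genes were named for a wide spread or a large difference in the same arrays, so the rates cannot be compared. ChREBPβ-deficient replicate 2 was the highest for Fam19a2 (8.91) and Mt2 (14.21) and the lowest for Plin1 (5.15). WT replicate 2 was the highest for Cyp2b10 (10.77), the nearest WT mouse being at 7.12, and the lowest for Fam126a (10.02). These mice also stood apart on the second residual component (40.3 and 37.5) and had the lowest summed exocrine pancreas markers of their groups (13.62 for both). ChREBPβ-deficient replicate 2 had the highest summed lymphocyte markers (10.57). WT replicate 5 was the highest for Elovl6 (15.16) and Gpam (16.17) and ChREBPβ-deficient replicate 6 for the Bcl6 probe (9.95).

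A search made after the data were seen asked which probes had 1 mouse at least 4-fold beyond all 15 others. It found 20 probes of 20 genes in 7 mice, and these were chosen for that gap, so their gaps are a description. ChREBPβ-deficient replicate 5 accounted for 10, all higher. Tff2, a trefoil peptide of gastric mucus, read 13.29 in this mouse and at most 5.45 in the others, a 230-fold gap. Gkn3, a gastrokine, read 12.51 (next 7.09), Prap1 9.78 (next 5.28), S100g, a calcium-binding protein of the intestine, 9.73 (next 5.33), and Dmbt1, a mucosal scavenger receptor, 9.10 (next 4.83). The others were Sprr2a2 (9.23), Zg16 (8.04), which binds mucus, Muc13 (8.10), a mucin, 2310057J18Rik (8.90) and 9530053A07Rik (7.90). Mlxipl lost its call without this mouse, with an adjusted limma p of 0.0505. The part of these genes in any group difference was not tested.

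The remaining 10 genes were spread over 6 mice. ChREBPβ-deficient replicate 2 read 9.21 for Gh, growth hormone, with the next mouse at 5.03. ChREBPβ-deficient replicate 1 read 10.24 for Prm2, a sperm protamine, and replicate 3 was the lowest for Erdr1 (8.66, next 11.96) and Gm34786 (4.58). WT replicate 1 read 8.89 for Fxyd2, for which ChREBPβ-deficient replicate 4 also stood apart within its own group (6.41). WT replicate 2 read 7.996 on a probe of Nnt, the mitochondrial transhydrogenase that is known to be disrupted in C57BL/6J mice, where the next mouse read 5.67, and 8.10 for AI549920. WT replicate 3 was the highest for 3 transcripts without a symbol (8.54, 9.06 and 8.31).

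The effect of genotype differed between the lines, by the interaction term of the limma fit at an adjusted p under 0.05, for 23 probes given with values. The quantity is the log2 difference in the ChREBPβ line minus that in the total ChREBP line. It was positive for the ChREBP targets and lipid genes Rgs16 (6.12), G6pc (4.81), Pklr (4.26), Elovl6 (3.80), Scd1 (3.59), Fasn (3.33), Acaca (2.02), Khk (1.96), Gpam (1.75), Txnip (1.28), Plin5 (0.90), Plin2 (0.87) and Gckr (0.77), and for Cyp8b1 (2.12), Mlxipl (0.65) and Sc5d (0.56). It was negative for the dimmer probe of Bcl6 (-3.47), Cyp7a1 (-1.98), Slc26a4 (-1.53), Cpt1a (-0.95), Chmp4b (-0.43), Eci1 (-0.29) and Acadm (-0.28).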

How the results depend on the processing

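Mlxipl stayed negative in 33 alternatives, from -0.59 to -0.34, and passed in 25. It did not pass with the 16 arrays alone (-0.48, adjusted p = 0.0888), the slide as a fixed block (-0.54), within scan day 1 (-0.34) or, chosen after seeing the data, without WT replicates 6 and 8 (-0.45); without 1 mouse it ran from -0.52 to -0.45. The labels do not say whether equal replicate numbers mark a pair. Such pairs had r above 0.1 in 6 of 8 cases. Of the ChREBPβ-deficient mice, 4 were closest to the WT mouse of their own number. With the replicate block on the 16 arrays Mlxipl did not pass (-0.48, adjusted p = 0.314). In that fit 0 genes were lower and 133 probes, in place of 250, reached beyond 2-fold. Genes called lower numbered 2 with the processed signal (Mlxipl and the chromosome 4 probe A_30_P01029792). They also numbered 2 with array weights and without replicate 2 of both groups (added after seeing the data). They numbered 0 with 16 arrays, with the fixed slide block, on scan day 1 and with adjusted Mann-Whitney tests. The count was also 0 with a required fold of 1.5 and without WT replicates 6 and 8, and 0 to 2 without 1 mouse. Genes called higher numbered 1 with array weights (Slc26a4) and on scan day 2, and 0 to 1 without 1 mouse. Unadjusted Mann-Whitney tests gave 894 higher and 1212 lower of 23968 gene names, each counted if any of its probes passed. Probes reaching beyond 2-fold numbered 829 with the processed signal, 424 with the fixed slide block, 752 and 697 on scan days 1 and 2, and 248 to 309 without 1 mouse. Probes at least 2-fold apart numbered 35 with the processed signal, 24 without a filter, 8 with a filter on all arrays, 56 on scan day 2, and 12 to 19 without 1 mouse. List medians moved beyond the spread between mice for exocrine pancreas with the fixed slide block (-0.32), lipogenesis (-0.0895 and 0.44 on scan days 1 and 2), endothelial markers (-0.10 and 0.18), and glycolysis (0.10) and red blood cells (0.47) on day 2. The cause was not tested. The limits are few mice, dim probes and scan days that held both groups unequally.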

Other observations

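Lists of other liver programs were also examined. Of 10 interferon response genes, 7 had a negative difference, 0 were called and the median was -0.14, and all 10 intervals lay inside 2-fold, while 9 of the 10 fell without both isoforms (14.6% of all genes). Of 12 genes of the unfolded protein and heat shock response, 8 had a positive difference and 0 were called, with a median of 0.05. Trib3, a pseudokinase induced by stress and fasting, ran from 10.69 to 11.80 (median 11.54) in ChREBPβ-deficient mice and from 10.47 to 11.50 (median 10.77) in WT mice, a difference of 0.54 (95% interval 0.15 to 0.92, unadjusted p = 0.008). The groups overlapped and the adjusted test was not passed. Among 9 cell cycle genes the median was 0.03 and 0 were called.

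Of 12 genes that depend on growth hormone or sex, 6 had a positive and 6 a negative difference, with a median of 0.01 and 4 intervals inside 1.5-fold. Socs2, a feedback inhibitor of growth hormone signalling, had the lowest difference, -0.73 (95% interval -1.58 to 0.13). Of 9 genes of VLDL assembly and triglyceride clearance, 0 were called and 8 had an interval inside 2-fold. Apoa4, an apolipoprotein, had the lowest difference of that list, -0.67 (-1.64 to 0.30). Its sign differed between mice of the 2 scan days, 0.40 (SE 0.70) on the first and -1.46 (SE 0.61) on the second.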
